A study of Homo sapiens with 10 samples.

Results

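The genes described are the malate dehydrogenases MDH1 and MDH2 and 7 further enzymes of the citric acid cycle: CS, IDH3A, OGDH, DLST, SUCLG1, SUCLA2 and FH. They were measured on 10 Illumina beadchips of RNA from Meg01, a human megakaryoblastic cell line. Members were found by the gene symbol of the platform annotation, and they were chosen from this family with earlier results of these arrays known, among them that the reading of MDH2 changes with the normalization. Of the 9 genes, 8 had a probe, 13 probes in all, and these were among 13701 named genes that passed the filter on dim probes. FH, fumarase, is not analysed here. All 13 member probes passed that filter, which asked for a signal above background on at least 2 arrays. Which comparison led to the choice is not recorded, so the differences of the members are given as a description in all 6 comparisons.

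Lentivirus (multiplicity of infection 10) delivered either the hairpin sh95 against ATXN2 (knockdown) or the control hairpin shc002, and GFP-positive cells were sorted after 48 hours. ATXN2 encodes ataxin-2, an RNA-binding protein. Cell lysates were separated on 7% to 46% sucrose, where an mRNA travels farther the more ribosomes it carries. Fractions 9 to 17 were pooled as polysomal RNA and fractions 1 to 8 as subpolysomal RNA. The 4 groups were polysomal RNA of knockdown cells (3 arrays), polysomal RNA of control cells (3 arrays), subpolysomal RNA of knockdown cells (2 arrays) and subpolysomal RNA of control cells (2 arrays). All of them came from the same line, so one hairpin and one cell line stand for the knockdown. The polysomal arrays are numbered P2, P4 and P5 and the subpolysomal ones P1 and P3, with 1 knockdown and 1 control array to a number. Because no number occurs in both pools, a difference between pools cannot be told apart from one between these numbers.

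The citric acid cycle oxidises acetyl groups in the mitochondrial matrix and passes the electrons to the respiratory chain. Its last step, the oxidation of malate to oxaloacetate, is carried out by MDH2. MDH1 is the cytosolic counterpart and runs the reaction in the other direction in the malate-aspartate shuttle, which carries reducing equivalents of glycolysis into mitochondria. Citrate synthase (CS) opens the cycle, IDH3A is the catalytic subunit of the NAD-dependent isocitrate dehydrogenase, and OGDH and DLST are the first and second components of the 2-oxoglutarate dehydrogenase complex. SUCLG1 is the shared alpha subunit and SUCLA2 the ATP-specific beta subunit of succinyl-CoA synthetase. All of these proteins are encoded in the nucleus and translated in the cytosol, so their mRNAs can be followed through a ribosome gradient.

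ATXN2 itself read log2 8.68, 8.69 and 8.64 in knockdown polysomal RNA (P2, P4 and P5), against 9.18, 10.77 and 9.67 in control polysomal RNA. It read 8.99 and 8.67 in knockdown subpolysomal RNA (P1 and P3), against 9.31 and 9.87 in control subpolysomal RNA, so every knockdown array was below its partner. Between 18456 and 20205 of 47323 probes were above background on each array. Of 12 megakaryocyte and platelet markers on the array, ITGA2B, GP1BA, GATA1, TAL1, FLI1 and RUNX1 were above background on all 10 arrays. PPBP was above background on 9, GP9 on 8, ITGB3 on 4, SELP on 2, VWF on 1 and PF4 on 0. The fetal globin mRNAs HBG1 and HBG2 were bright on all 10, and the control polysomal array of P2 stood apart, with 140375 intensity units for HBG1 against 10464 to 29213 on the other 9 arrays. Summed over 6 erythroid markers the intensities were 23958 to 32932 in knockdown polysomal and 28045 to 280992 in control polysomal RNA. In subpolysomal RNA they were 50512 to 65991 in knockdown and 28073 to 56767 in control cells. HBG1 and HBG2 make up most of these sums, with 140375 and 136248 of the 280992 on the control polysomal array of P2. The sums therefore mainly restate the globin readings and say little about the other erythroid markers.

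MDH1 was brighter in polysomal than in subpolysomal RNA in both kinds of cell and with every normalization tried. After quantile normalization, which gives all arrays 1 distribution so that a value depends on the rank of a probe, it read log2 12.46, 12.12 and 12.07 in knockdown polysomal RNA (P2, P4 and P5) and 11.71, 11.91 and 11.98 in control polysomal RNA. In subpolysomal RNA it read 11.00 and 10.97 in knockdown cells (P1 and P3) and 11.03 and 11.01 in control cells. The lowest polysomal array therefore lay above the highest subpolysomal one. The log2 difference between pools was 1.23 (SE 0.13), a 2.35-fold ratio, in knockdown cells (n = 3 against 2) and 0.84 (SE 0.13), a 1.79-fold ratio, in control cells (n = 3 against 2). A ratio between pools is relative to the other probes of the array. It is not the share of an mRNA that is on polysomes, and in bulk RNA fewer cells with an mRNA and less of it per cell cannot be told apart.

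MDH2 was the brightest member. After quantile normalization it had the smallest standard error between pools of the 13 member probes, while in the deposited values its standard error was 0.56, the largest but that of SUCLA2 (0.64). Quantile-normalized, it read 13.62, 13.70 and 13.79 in knockdown polysomal RNA and 13.34, 13.54 and 13.50 in control polysomal RNA, against 12.74 and 12.71 in knockdown subpolysomal and 12.88 and 12.93 in control subpolysomal RNA. The SD within a group was between 0.02 and 0.10, and the polysomal and subpolysomal arrays did not overlap. The difference between pools was 0.98 (SE 0.07) in knockdown cells, a 1.97-fold ratio, and 0.56 (SE 0.07) in control cells, a 1.47-fold ratio.

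**Figure D1:**
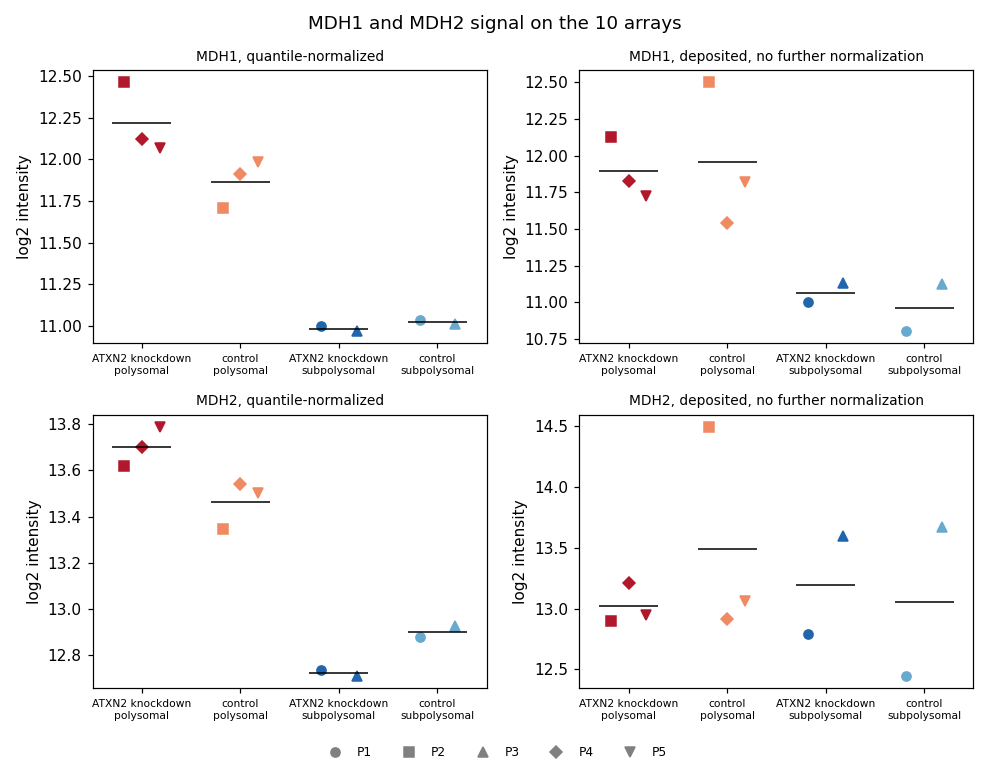
Log2 intensity of MDH1 (top) and MDH2 (bottom) on each array, quantile-normalized (left) and as deposited (right). Points are arrays, shaped by P number, and lines are group means. MDH1 separates the pools in both panels, whereas MDH2 separates them only at left; at right its control polysomal P2 array reads 14.49 and both P3 arrays read above 13.5.

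The separation of MDH2 was lost in the deposited values without further normalization. There MDH2 read 12.90, 13.21 and 12.94 in knockdown polysomal RNA and 14.49, 12.92 and 13.06 in control polysomal RNA. The subpolysomal arrays read 12.79 and 13.60 in knockdown cells and 12.45 and 13.67 in control cells, so that the P3 arrays of both hairpins were brighter than all polysomal arrays but the control array of P2. The difference between pools was -0.17 (SE 0.56) in knockdown cells, opposite in sign to the quantile-normalized one, and 0.43 (SE 0.56) in control cells. Without the control array of P2 the deposited values gave -0.07 in control cells. That array is the one with the very high globin signal, and the part of that signal in the MDH2 reading was not tested.

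The size of the adjustment differed between probes and arrays, as it depends on the rank of a probe on its array. On the control array of P2 the CS probes moved by -0.70, -0.70 and 0.01. The brightest probe read 29849 and 38625 units on the knockdown subpolysomal arrays (P1 and P3). On the knockdown polysomal arrays (P2, P4 and P5) it read 12107, 16263 and 11164. The part of these differences in the MDH2 reading was not tested. Quantile normalization moved MDH2 by -1.15 on the control array of P2, by -0.74 on the control and -0.88 on the knockdown array of P3, and by 0.85 on the knockdown array of P5. For MDH1 the same step moved the control array of P2 by -0.80 and the other 9 arrays by between -0.16 and 0.37. MDH1 accordingly kept its direction in the deposited values, with pool differences of 0.83 (SE 0.27) in knockdown cells and 0.99 (SE 0.27) in control cells. All 6 polysomal MDH1 values were again above all 4 subpolysomal ones.

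Ranks within an array restate the quantile-normalized values, which depend on rank alone, and give no separate evidence; they show where the probes lie. Counting from the brightest of the 47323 probes, MDH2 held ranks 167, 148 and 129 in knockdown polysomal RNA and 229, 184 and 194 in control polysomal RNA. Its ranks were 378 and 386 in knockdown subpolysomal and 338 and 325 in control subpolysomal RNA. MDH1 held ranks 467, 609 and 633 in knockdown polysomal and 828, 711 and 675 in control polysomal RNA, against 1358 and 1385 in knockdown subpolysomal and 1325 and 1345 in control subpolysomal RNA. Both dehydrogenases thus stood nearer the top on each polysomal array than on any subpolysomal array. Across all tested probes 2.3% had all 6 polysomal arrays above all 4 subpolysomal ones after quantile normalization, and 3.24% the reverse.

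**Figure D2:**
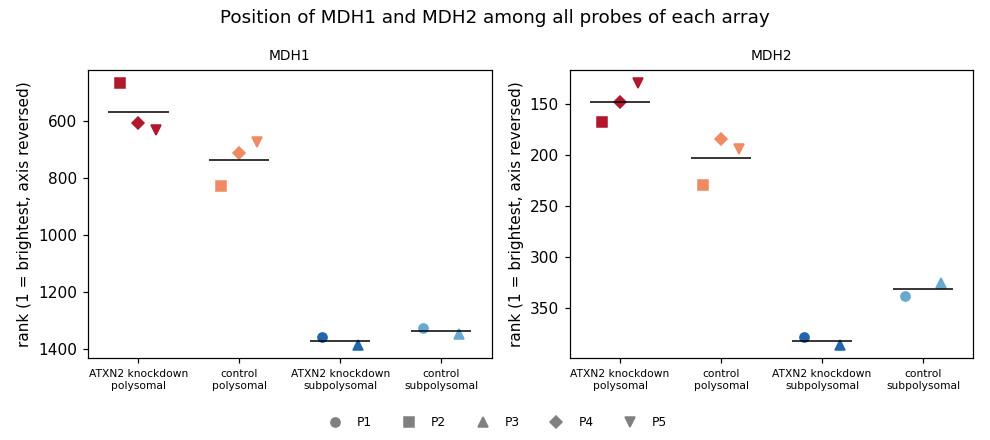
Rank of the MDH1 and MDH2 probes among the 47323 probes of each array, with rank 1 the brightest and the axis reversed so that brighter is higher. Points are arrays, shaped by P number, and lines are group means. Polysomal arrays lie at ranks 129 to 229 for MDH2 and 467 to 828 for MDH1, above all subpolysomal arrays.

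Succinyl-CoA synthetase turns succinyl-CoA into succinate, and its subunits SUCLG1 and SUCLA2 read brighter in polysomal RNA. SUCLG2, the GTP-specific beta subunit, did not share this, with a pool difference of 0.13 (SE 0.30) in knockdown and -0.30 (SE 0.30) in control cells. SUCLG1 read 11.46, 10.89 and 11.22 in knockdown polysomal and 10.39, 10.77 and 10.82 in control polysomal RNA, against 10.66 and 10.43 in knockdown subpolysomal and 10.36 and 10.21 in control subpolysomal RNA. Its pool difference was 0.65 (SE 0.19) in knockdown cells and 0.38 (SE 0.19) in control cells, without overlap within either kind of cell, and in the deposited values it was 0.47 (SE 0.19) and 0.54 (SE 0.19).

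SUCLA2 was brighter in polysomal RNA on both of its probes. The brighter probe read 9.88, 9.45 and 8.99 in knockdown polysomal and 10.65, 9.10 and 9.11 in control polysomal RNA, against 8.73 and 8.73 in knockdown subpolysomal and 8.54 and 8.75 in control subpolysomal RNA. All 6 polysomal arrays were above the 4 subpolysomal ones, and the 2 arrays of P2 were the highest. Its pool difference was 0.71 (SE 0.49) in knockdown and 0.98 (SE 0.49) in control cells, and without the control array of P2 the control cells gave 0.45. The dimmer probe gave 0.46 (SE 0.18) in knockdown and 0.54 (SE 0.18) in control cells. The deposited values of both probes kept the pools apart, as did those of 2.31% of all probes for the 6 against 4 arrays.

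CS was the member that read dimmer in polysomal RNA, although its 3 probes differed. The brightest read 11.29, 11.26 and 11.28 in knockdown polysomal and 11.16, 11.32 and 10.97 in control polysomal RNA, against 11.49 and 11.57 in knockdown subpolysomal and 11.41 and 11.69 in control subpolysomal RNA. All polysomal arrays were below all subpolysomal ones, with pool differences of -0.25 (SE 0.12) in knockdown and -0.40 (SE 0.12) in control cells. The dimmest probe, with readings of 8.12 to 9.36, gave -0.48 (SE 0.23) and -0.69 (SE 0.23). The third probe, almost as bright as the first, gave 0.03 (SE 0.11) in knockdown and -0.09 (SE 0.11) in control cells, so the direction did not hold over the probes of this gene. In the deposited values the brightest probe kept its sign, at -0.58 (SE 0.32) in knockdown and -0.25 (SE 0.32) in control cells, with overlapping pools in control cells.

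The dehydrogenase subunits were near background or spread widely. DLST read 9.40, 9.31 and 9.02 in knockdown polysomal and 10.27, 9.51 and 8.82 in control polysomal RNA, against 9.07 and 8.96 in knockdown subpolysomal and 8.77 and 9.28 in control subpolysomal RNA. The pools overlapped, and its pool difference of 0.23 (SE 0.39) in knockdown and 0.51 (SE 0.39) in control cells had 95% confidence intervals of -0.68 to 1.14 in knockdown and -0.40 to 1.42 in control cells. The SD of DLST was 0.20 in knockdown polysomal and 0.72 in control polysomal RNA. In subpolysomal RNA it was 0.07 in knockdown and 0.36 in control cells, and all of these groups enter both intervals. Without the control array of P2 the control cells gave 0.14. IDH3A read between 7.78 and 8.18 on all arrays, with pool differences of 0.01 (SE 0.15) in knockdown and -0.01 (SE 0.15) in control cells. The brightest OGDH probe read 7.61 to 8.25 and was above background on 9 arrays, and the other 2 probes were on 3 and 2, so OGDH was barely measured. Its pool difference was 0.21 (SE 0.18) in knockdown and 0.17 (SE 0.18) in control cells. It was 0.03 in knockdown cells without the knockdown polysomal array of P4 and in control cells 0.07 without the polysomal array of P4 and 0.09 without the subpolysomal array of P1.

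**Figure D3:**
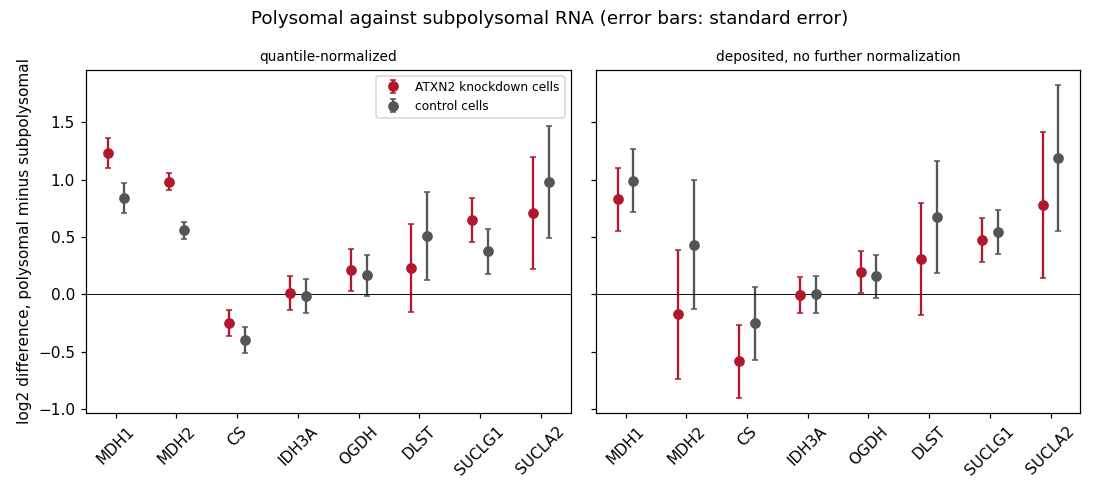
Log2 difference between polysomal and subpolysomal RNA for the brightest probe of each gene, in knockdown cells and control cells, quantile-normalized (left) and as deposited (right). Points are differences of group means (3 against 2 arrays). Bars are limma standard errors, which pool the spread within all 4 groups and so are equal in knockdown and control cells. MDH1, SUCLG1, SUCLA2, DLST and OGDH lie above 0 in all 4 sets, CS lies below 0, and MDH2 moves to -0.17 in knockdown cells at right.

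In knockdown cells limma called 2 of the 8 measured members between pools after quantile normalization, MDH1 and MDH2, where 0.159% of all probes were called, and in control cells it called 0 of 8, where 0.129% were. As this may be the comparison that led to the choice of the genes, nothing is read from the count. At an unadjusted p under 0.05 the members were 3 of 8 in knockdown cells (7.68% of all probes) and 3 of 8 in control cells (5.64%). In the deposited values limma called 0 of 8 in either kind of cell (0.0909% of all probes in knockdown and 0.0834% in control cells), with 2 of 8 in each at an unadjusted p under 0.05 (7.74% and 5.33% of all probes). After quantile normalization the pools did not overlap for 4 members that were higher and 1 that was lower in polysomal RNA, in knockdown cells (11.9% and 11.1% of all probes) as in control cells (8.56% and 10.3%). In the deposited values these were 4 and 1 in knockdown cells (11% and 12.9% of all probes), with DLST in place of MDH2. In control cells they were 3 and 0 (8.76% and 9.98%). With the P number as a random block limma called MDH2 alone in knockdown cells after quantile normalization. Leaving out 1 array changed the count too: limma called 0 of 8 without the knockdown subpolysomal array of P1 or P3 or the knockdown polysomal array of P4 or P5. It called MDH2 alone without the knockdown polysomal array of P2, the control polysomal array of P4 or P5 or the control subpolysomal array of P1 or P3. The median pool difference over the 8 genes was 0.44 in knockdown and 0.44 in control cells, beside 0.03 and 0.01 over all named genes. It was positive in 7 of 8 members in knockdown cells (52.8% of all probes) and negative in 1 (47.2%), and in control cells positive in 6 (51.9%) and negative in 2 (48.1%). The deposited values were positive in 5 members (50.1% of all probes) and negative in 3 (49.9%) in knockdown cells. IDH3A, counted as negative there, read -0.01 (SE 0.16). In control cells they were positive in 6 (53.2%) and negative in 2 (46.8%). The deposited median over the members was 0.25 in knockdown and 0.49 in control cells, beside 0.02 and 0.02 over all named genes.

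Of 41 other genes of the cycle and its surroundings 36 were measured, and limma called 0 of 36 in any of the 6 comparisons; at an unadjusted p under 0.05 there were 4 of 36 between pools in knockdown cells (7.68% of all probes) and 4 of 36 in control cells (5.64%). Their median pool difference was 0.28 in knockdown cells, with 29 of 36 positive (52.8% of all probes), and 0.15 in control cells, with 26 of 36 positive (51.9%). ACLY, which makes cytosolic acetyl-CoA from citrate, read 1.34 (SE 0.59) in knockdown and 1.90 (SE 0.59) in control cells. PDHB and PDHA1 are subunits of the pyruvate dehydrogenase that feeds the cycle, and PDHB read 1.41 (SE 0.45) in knockdown cells and PDHA1 1.87 (SE 0.75) in control cells. At the other end MPC2, of the mitochondrial pyruvate carrier, read -0.94 (SE 0.54) in knockdown and -0.82 (SE 0.54) in control cells. IDH2, the NADP-dependent mitochondrial isocitrate dehydrogenase, read -0.37 (SE 0.93) and -0.52 (SE 0.93) in those cells.

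The 7 measured other subunits of the cycle had a median pool difference of 0.78 in knockdown and 0.39 in control cells, with 6 of 7 positive in each. The 12 measured genes of pyruvate entry stood at 0.28 and 0.16. The 11 of the shuttle, transport and neighbours stood at 0.28 and 0.11, and the 6 relatives of aconitase, isocitrate dehydrogenase and malic enzyme at 0.14 and -0.32.

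**Figure D4:**
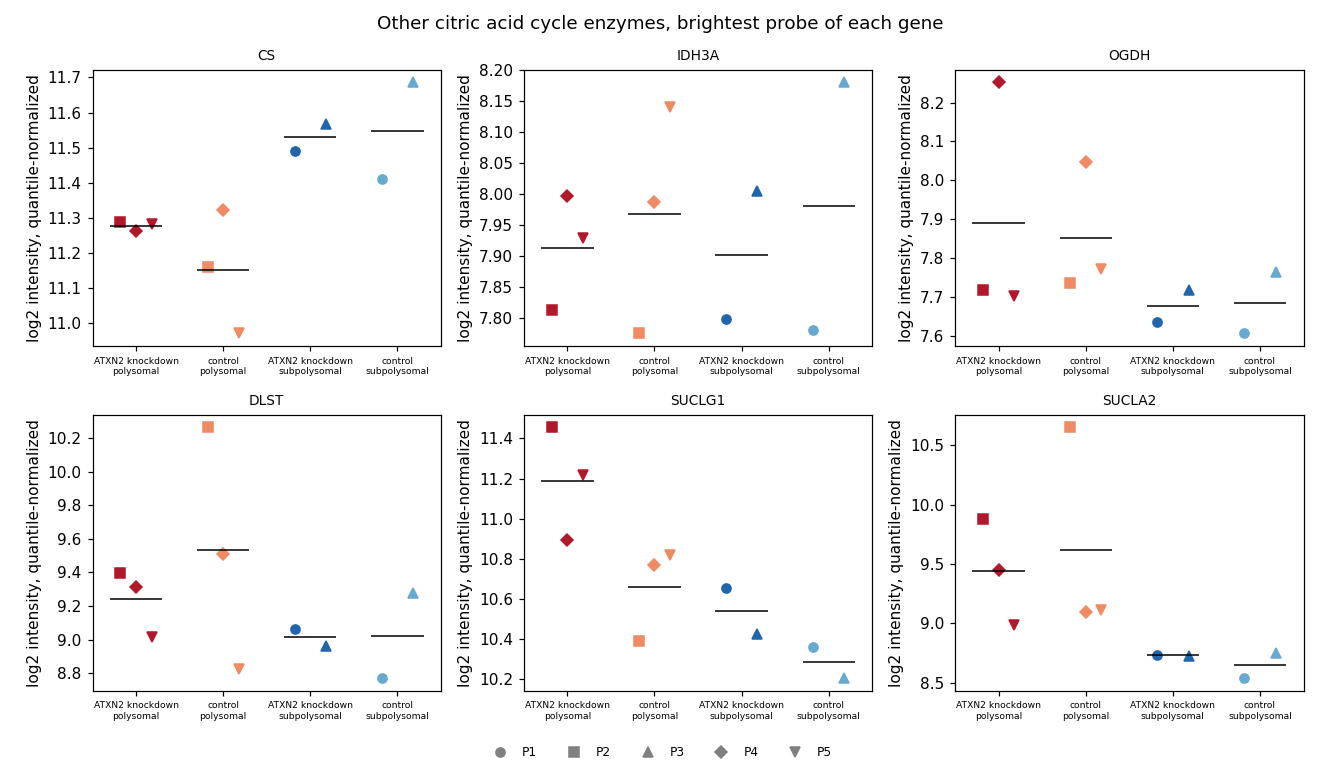
Quantile-normalized log2 intensity of the brightest probe of CS, IDH3A, OGDH, DLST, SUCLG1 and SUCLA2 on each array. Points are arrays, shaped by P number, and lines are group means; the vertical axes differ between panels. SUCLA2 lies higher and CS lower on all polysomal arrays, and DLST and SUCLA2 peak on the control polysomal P2 array.

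Knockdown against control within a pool showed no member past the threshold. In polysomal RNA (n = 3 against 3) limma called 0 of 8 members and 0% of all probes, with 3 of 8 members and 1.52% of all probes at an unadjusted p under 0.05. With the P number as a fixed block these were 2 of 8 members (MDH2 and SUCLG1) and 6.22% of all probes, and limma again called 0. SUCLG1 read 0.53 (SE 0.17) above control, MDH1 0.35 (SE 0.12) and MDH2 0.24 (SE 0.07), and in these 3 the knockdown arrays lay above all control arrays, as did those of 3.42% of all probes, while no member had the reverse (2.52%). CS read 0.13 (SE 0.10), OGDH 0.04 (SE 0.16), IDH3A -0.05 (SE 0.14), SUCLA2 -0.18 (SE 0.44) and DLST -0.29 (SE 0.34), with overlap. In the deposited values the 3 differences were 0.29 (SE 0.17) for SUCLG1, -0.06 (SE 0.25) for MDH1 and -0.47 (SE 0.50) for MDH2, and none was free of overlap (3.06% of all probes were apart with knockdown higher and 2.68% with it lower). Without the control array of P2 the deposited values gave 0.36, 0.21 and 0.03, and the quantile-normalized values gave 0.32 for SUCLA2 and 0.08 for DLST, both opposite in sign to those with it.

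In subpolysomal RNA (n = 2 against 2) limma called 0 of 8 members and 0% of all probes, with 0 of 8 members and 0.856% of all probes at an unadjusted p under 0.05. With the fixed block these were 1 of 8 members (MDH2) and 2.19% of all probes, and limma called 0. SUCLG1 read 0.26 (SE 0.21), MDH1 -0.04 (SE 0.14) and MDH2 -0.18 (SE 0.08), each without overlap between the hairpins (9.56% of all probes with knockdown higher and 9.96% with it lower). The other 5 members lay between -0.08 and 0.09. In the deposited values SUCLG1 read 0.36 (SE 0.21), while MDH1 at 0.10 (SE 0.30) and MDH2 at 0.13 (SE 0.61) overlapped (10.9% of all probes were apart with knockdown higher and 9.16% with it lower).

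SUCLG1 was the only member whose knockdown array was brighter than its control partner in all 5 pairs, by 1.07, 0.12 and 0.40 in P2, P4 and P5 and by 0.30 and 0.22 in P1 and P3. In the deposited values the 5 pair differences were 0.49, 0.14, 0.25, 0.48 and 0.24 in the same order. Of all probes 3.07% were higher in all 5 pairs with both sets of values. Averaged over the pools SUCLG1 read 0.39 (SE 0.14, 95% confidence interval 0.07 to 0.72), the limma adjusted p being 1.0, and 0.33 (SE 0.14) in the deposited values. The averaged values of the other 7 members lay between -0.15 for DLST and 0.16 for MDH1. limma called 0 of 8 members and 0% of probes, with 1 of 8 members and 0.845% of probes at an unadjusted p under 0.05. With the P number as a fixed block these were 1 of 8 members (SUCLG1) and 3.4% of probes, and limma again called 0.

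MDH1 and MDH2 split by pool in their pairs. After quantile normalization MDH1 differed by 0.76, 0.21 and 0.08 in the polysomal pairs P2, P4 and P5 and by -0.04 and -0.04 in the subpolysomal pairs P1 and P3. MDH2 differed by 0.28, 0.16 and 0.29 in the polysomal pairs and by -0.14 and -0.21 in the subpolysomal pairs. Of all probes 3.95% were higher in the 3 polysomal and lower in the 2 subpolysomal pairs. The change of the pool ratio with knockdown was 0.39 (SE 0.18) for MDH1 and 0.42 (SE 0.10) for MDH2, and limma called 0 of 8 members and 0% of probes, with MDH2 alone and 1.13% of probes at an unadjusted p under 0.05. With the P number as a fixed block these were again MDH2 alone and 3.65% of probes, and limma called 0. In the deposited values the same changes were -0.16 (SE 0.39) and -0.61 (SE 0.79), and the MDH2 pair of P2 read -1.60.

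DLST and the brighter SUCLA2 probe had their farthest pair in P2. There DLST differed by -0.87 and SUCLA2 by -0.78, against -0.20 to 0.19 and -0.12 to 0.35 in the other polysomal pairs. The dimmer SUCLA2 probe differed by -0.05 in P2 and lay between -0.05 and 0.16 in all 5 pairs. IDH3A and OGDH lay between -0.21 and 0.20 in all 5 pairs. At an unadjusted limma p under 0.05 the other pathway genes were 2 of 36 for knockdown in polysomal RNA (1.52% of all probes). They were 0 of 36 in subpolysomal RNA (0.856%) and 0 of 36 averaged over pools (0.845%). For the change of the pool ratio they were 1 of 36 (1.13%). The other pathway genes had a median knockdown difference of 0.04 in polysomal and -0.03 in subpolysomal RNA, and the farthest after quantile normalization were LDHA at 0.63 (SE 0.49, but 0.12 in the deposited values), SDHD at 0.58 (SE 0.46), GLUD1 at -0.58 (SE 1.17) and ACLY at -0.68 (SE 0.53) in polysomal RNA. In subpolysomal RNA they were PDHA1 at 0.38 (SE 0.83), ACO1 at 0.19 (SE 0.63), IDH2 at -0.33 (SE 1.02) and GOT2 at -0.35 (SE 0.33). Averaged over pools they were ME1 at 0.27 (SE 0.29), IDH3B at 0.26 (SE 0.44), GLUD1 at -0.35 (SE 0.93) and ACLY at -0.40 (SE 0.42). For the change of the pool ratio LDHA read 0.79 (SE 0.77) after quantile normalization but -0.01 (SE 0.50) in the deposited values. GOT2, the mitochondrial aminotransferase of the malate-aspartate shuttle, read 0.76 (SE 0.43), or 0.60 (SE 0.34) in the deposited values. ACLY read -0.56 (SE 0.84) and PDHA1 -0.59 (SE 1.07), or -0.93 and -1.26 in the deposited values.

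**Figure D5:**
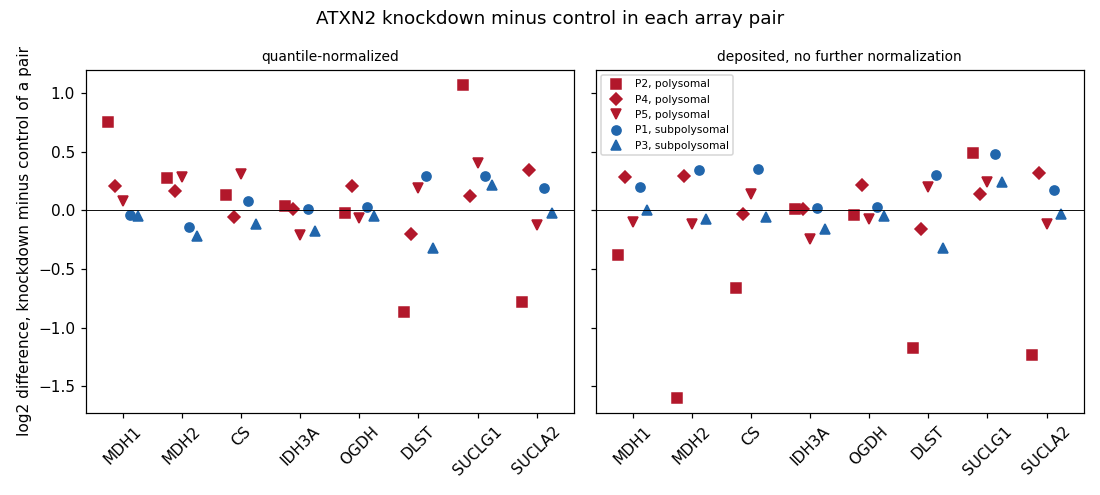
Knockdown minus control log2 intensity in each of the 5 array pairs for the brightest probe of each gene, quantile-normalized (left) and as deposited (right). Points are pairs, red for polysomal and blue for subpolysomal. SUCLG1 lies above 0 in all pairs in both panels, MDH1 and MDH2 split by pool at left only, and the P2 pair of MDH2 reads -1.60 at right.

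Across the 10 arrays the quantile-normalized values of MDH1 and MDH2 correlated at 0.955 (Pearson's r), those of MDH1 and SUCLG1 at 0.837, those of DLST and SUCLA2 at 0.858 and those of MDH1 and CS at -0.719. These points share arrays, pools and scaling, so they are a description. Among 7756 other genes above background on all arrays, FTO (0.981), PSMA6 (0.979) and KPNB1 (0.970) were the most like MDH1, and FTO (0.975), FSCN1 (0.966) and SRRT (0.965) the most like MDH2. With the group means removed the likeness to MDH1 was 0.629 for FTO, 0.946 for PSMA6 and 0.627 for KPNB1, and that to MDH2 was 0.0685 for FTO, 0.565 for FSCN1 and -0.042 for SRRT. With the deposited values the lists differed, with CBS, CBX1 and PPT1 for MDH1 and CD68, PITHD1 and CLNS1A for MDH2.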

How the data were processed

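The values are processed probe intensities deposited by the authors, 1 column per array, linear in scale, none below 155.4. The authors' background correction and normalization are not described here; the submitters' processing notes name R 2.15. A second table of unnormalized signals has 20 columns headed by no sample label and was not used. Intensities were log2-transformed without a pseudocount and quantile-normalized. Background was modelled per array by mirroring log2 values below their mode, and probes above its 0.05 upper tail on at least 2 arrays were kept, 26394 of 47323. Symbols came from the platform annotation (1 symbol for 30113 probes, several for 8, none for 17202), updated by gene identifier to RefSeq. Each gene is shown by its brightest kept probe.

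A limma 3.58.1 model (R 4.3.3) of 4 group means was fitted to all kept probes and 10 arrays, with Benjamini-Hochberg adjustment over all probes, two-sided, threshold 0.05. The standard errors are the moderated ones of this model, so each holds the spread within all 4 groups and not only within those compared. A check on simulated data used independent noise and large planted changes between pools, so it says nothing about pairing, noisy probes or small differences. Arrays of a P number deviated together from their group means, so the numbers were taken to pair the arrays. Over probes r was 0.763 in P2, 0.769 in P4 and 0.467 in P5. It was 0.917 in P1 and in P3, which is 1 value, since 2 arrays of a group deviate equally in opposite directions. The deviations of the polysomal arrays are tied too, so these values are not independent. The labels describe 3 independent experiments but not which arrays share one, so p-values may be too small, and the number of arrays limits precision. The main fit leaves the pairing out, which can make p-values of the knockdown comparisons too large instead. At an unadjusted limma p under 0.05, 1.52% of probes passed for knockdown in polysomal RNA, and 6.22% with the P number as a fixed block. For knockdown in subpolysomal RNA these shares were 0.856% and 2.19%. Alternatives were other normalizations, filters, priors, blocks, probes and each array left out. The members, the 41 pathway genes and the markers were chosen with earlier results of these data known. Named genes are all members, the 2 farthest pathway genes on each side of a comparison, and the 3 genes most like MDH1 and MDH2.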

Additional observations from a re-analysis of the deposited data

How the results depend on the processing

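The count of members called between pools in knockdown cells, 2 after quantile normalization, was 0 with the deposited values, with median centring, with only the arrays compared, with a trended and robust prior and with the deposited values without the control P2 array (an alternative added after seeing the data). It was 1 with cyclic loess (MDH1) and 1 with the replicate block as a random effect (MDH2), and it ran from 0 to 2 with each array left out. In the other 5 comparisons it was 0 in all settings run. MDH2 in knockdown cells stood at 0.98 after quantile normalization and 0.76 after cyclic loess, but at -0.17 with the deposited values; the cause was not tested. Median centring, which hardly moves arrays of nearly equal median, gave -0.17 too, and leaving out control P2 cannot move this value (-0.17), so these are 1 reversal and not 3. The median over members between pools in knockdown cells was 0.25 with the deposited values, 0.26 with median centring, 0.25 with the deposited values without control P2, and 0.65 over the 7 genes above background on all arrays. In control cells it was 0.18 with the deposited values without control P2. For knockdown in polysomal RNA it was -0.13 with the deposited values and -0.13 with median centring, and for the change of the pool ratio -0.25 and -0.24. Knockdown in subpolysomal RNA gave -0.12 to 0.12 with each array left out. The replicate block as a fixed factor called 0 members in the 4 comparisons it allows, and the block changed no other call. Over all probes limma called 42 between pools in knockdown cells, against 24 with the deposited values, 25 with median centring and 0 with a trended and robust prior or a fit of those groups alone. In control cells it called 34, against 22 with the deposited values, 17 without a filter, 4 above background on all arrays, 14 with the random block and 0 with a trended and robust prior or a fit of those groups alone. Cyclic loess gave 53 in knockdown cells. With each array left out the counts were 1 to 42 in knockdown and 1 to 12 in control cells. Where an array left out leaves 1 in a group, that array is assumed to vary like the other groups. Of 970 member values under alternatives 58 moved by more than the SD between replicates, beside that MDH2 reversal. The others are no measure of stability, since 285 equal the reported value and many alternatives leave a difference of means as it is by construction. MDH1, SUCLG1 and SUCLA2 kept a positive pool difference in all settings run. DLST, whose pools overlapped after quantile normalization, and OGDH, barely measured, were also positive with the deposited values and with each array left out. A constant sign therefore does not set the former genes apart.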
